A study of Mus musculus with 20 samples.

Results

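Visceral fat of mice fed a high fat (HF) diet and of mice fed a control diet was compared at the end of pregnancy, across all genes measured on the array. The comparison is between 10 of the 20 arrays of the series, taken by their titles: 5 HF pregnant mice and 5 control pregnant mice, with 1 array per mouse. All were C57BL/6J females at E18.5, mated with chow-fed males. The HF pregnant mice ate a diet with 58% fat (Research diets 12331) and the control pregnant mice a diet with 10% fat (Research diets 12328), begun before mating. The methods give fat as a share of energy. Carbohydrate differed too, with sucrose in the HF diet and a larger share of corn starch in the control diet. Effects of fat and of carbohydrate therefore cannot be told apart. The tissue was unfractionated visceral fat with the visible lymph nodes dissected away, and no cells were sorted. The labels call it visceral fat, and the study's figure of the array data names the mesenteric depot. The remaining 10 arrays are 5 HF non pregnant and 5 control non pregnant mice on the same diets. They are used here to ask whether the effect of diet was the same without pregnancy. They also enter the filter on low intensity, the choice of probe set for each gene and the estimate of spread behind each SE and p-value.

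White adipocytes store fatty acids taken from the blood and also make them from glucose by de novo lipogenesis. Citrate leaves the mitochondrion and is cleaved to acetyl-CoA, which acetyl-CoA carboxylase and fatty acid synthase turn into palmitate with NADPH from malic enzyme and the pentose phosphate pathway, after which elongases and desaturases lengthen and unsaturate the chain. The pathway is known to be raised by insulin and dietary carbohydrate through the transcription factors SREBP-1c and ChREBP and lowered by dietary fat, and late pregnancy is known as a time of insulin resistance and of fat release from maternal stores.

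Signal was measured on Affymetrix Mouse Genome 430 2.0 arrays, and gene values below are log2 intensities unless an intensity is named as such. Array medians lay between 60.69 and 64.73 on the linear scale, and between 17606 and 18797 probe sets passed an intensity of 100 on each array. The HF pregnant mice were alike (median SD over genes 0.152, lowest correlation between any 2 of them 0.9232), whereas the control pregnant mice varied more (median SD 0.265, lowest correlation 0.821). Adipocyte markers were bright in both pregnant groups: Adipoq, which encodes the hormone adiponectin, read 14.38 in control and 14.34 in HF mice, and Fabp4, an adipocyte fatty acid binding protein, 14.78 and 14.66. Lymphocyte and pancreatic acinar markers varied between mice of 1 group and are given beside the results they move with. In whole tissue, fewer cells of a type and less RNA per cell cannot be told apart.

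The HF diet in late pregnancy went with lower expression of a small set of genes, led by those of fatty acid synthesis. Of 19802 probe sets tested with limma, 35 were lower in HF pregnant mice at a Benjamini-Hochberg adjusted p under 0.05 (0.177% of those tested) and 3 were higher (0.0151%), and probe sets past this threshold are said to be called. Taking the probe set of highest mean for each gene, 23 of 10603 genes fell (0.217%) and 3 rose (0.0283%). Over all genes the median log2 fold change was 0.05, with quartiles of -0.10 and 0.20, a centre that the normalization holds near 0. Changes of at least 4-fold were seen in 17 genes downward and in 4 upward. The 5 HF mice all lay below the 5 control mice in 215 genes (2.03%) and all above them in 193 (1.82%), and an unadjusted p under 0.05 was met by 882 lower genes (8.32%) and 548 higher genes (5.17%).

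**Figure D1:**
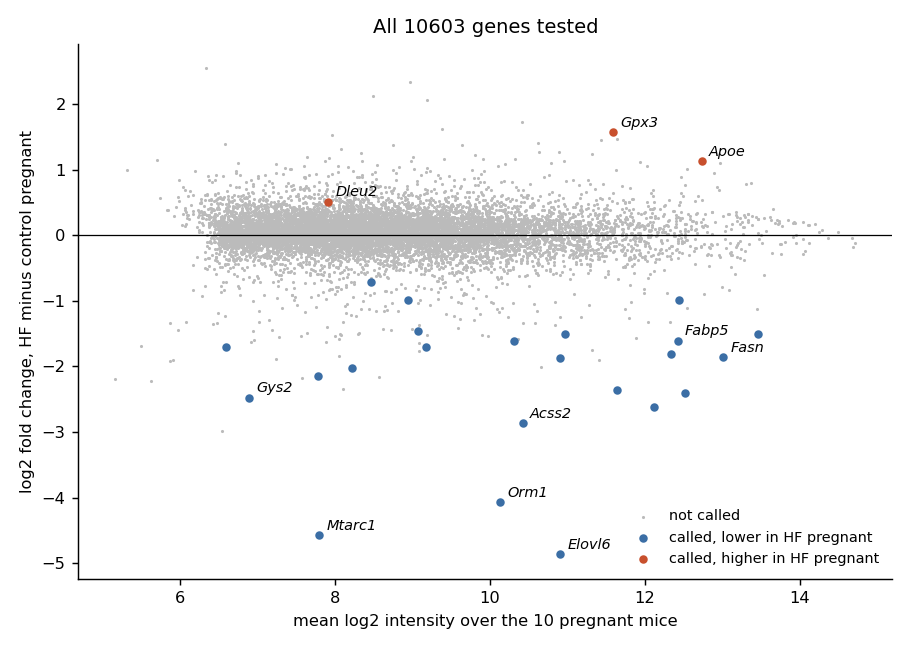
Log2 fold change between HF pregnant and control pregnant mice (y axis, HF minus control) against the mean log2 intensity over the 10 pregnant mice (x axis), 1 point for each of 10603 genes. The 23 genes called lower (blue) reach down to Elovl6 at -4.87, whereas the 3 called higher (red) are Gpx3, Apoe and Dleu2.

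The enzymes that supply acetyl-CoA and build palmitate were lower. Of 10 genes measured in this group, 3 fell (Fasn, Acly and Acss2; 0.217% of all genes did), none rose, and the median log2 fold change was -1.44 against 0.05 over all genes. Fasn, which encodes fatty acid synthase, read 14.32, 13.85, 14.15, 13.54 and 13.81 in control mice 1 to 5 and 12.08, 12.42, 11.84, 11.92 and 12.14 in HF mice 1 to 5. The lowest control mouse lay more than 1 log2 unit above the highest HF mouse. Fasn was therefore 3.62-fold lower on the HF diet (log2 fold change -1.86, SE 0.26, limma adjusted p = 0.00282).

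Acly encodes ATP citrate lyase, which cleaves cytosolic citrate to acetyl-CoA. It read 14.28, 13.64, 14.11, 13.35 and 13.25 in the control mice and 11.26, 11.39, 10.95, 11.42 and 11.56 in the HF mice. Control mice 1 and 3 were the highest, HF mouse 3 the lowest, and the groups did not overlap. The difference was 5.31-fold (-2.41, SE 0.39, adjusted p = 0.00915), and the other probe sets of the gene, at -3.14 and -2.13, were also called.

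Acss2, the cytosolic enzyme that activates acetate to acetyl-CoA, had the largest fold of the group. Its values were 12.51, 11.93, 12.46, 11.01 and 11.39 in control mice and 8.97, 9.29, 8.56, 8.87 and 9.26 in HF mice. All 5 HF mice lay below every control mouse, a 7.31-fold difference (-2.87, SE 0.41, adjusted p = 0.00361), and its second probe set gave -2.79. Acaca, the cytosolic acetyl-CoA carboxylase of the pathway, and Slc25a1, the mitochondrial citrate exporter, had folds of similar size without passing the threshold: Acaca differed by -1.91 (SE 0.39, adjusted p = 0.0561) and Slc25a1 by -2.0 (SE 0.43, adjusted p = 0.069). Both kept all HF mice below all control mice. Across the group, 7 of 10 genes had this separation, against 2.03% of all genes, and the remaining values ran from -1.03 for Acacb and for the glucose transporter Slc2a4 to 0.16 for Pdk4, a kinase that inhibits pyruvate dehydrogenase. The count of 3 called members stayed at 3 when control mouse 1, 2 or 3 or HF mouse 5 was left out.

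Because these genes moved together, the sequence just upstream of their transcription starts is shown for 4 of them, chosen as the elongase with the largest fold, the synthase, the acetate enzyme and the transketolase described next. The 250 bases before each start are RefSeq sequence on GRCm38.p6, 5′ to 3′ on the gene's strand, and capitals mark matches on either strand to TCACCCC, the core of a sterol regulatory element, and to CCAAT, the box read by NF-Y. The windows are chr3:129532136-129532385 on the plus strand for Elovl6, chr11:120824548-120824797 on the minus strand for Fasn, chr2:155517793-155518042 on the plus strand for Acss2 and chr14:30548881-30549130 on the plus strand for Tkt.
Elovl6: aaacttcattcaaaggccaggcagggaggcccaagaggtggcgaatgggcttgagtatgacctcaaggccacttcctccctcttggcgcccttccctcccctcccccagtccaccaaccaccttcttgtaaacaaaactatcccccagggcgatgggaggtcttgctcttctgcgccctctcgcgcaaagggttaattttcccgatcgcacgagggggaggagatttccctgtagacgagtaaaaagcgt
Fasn: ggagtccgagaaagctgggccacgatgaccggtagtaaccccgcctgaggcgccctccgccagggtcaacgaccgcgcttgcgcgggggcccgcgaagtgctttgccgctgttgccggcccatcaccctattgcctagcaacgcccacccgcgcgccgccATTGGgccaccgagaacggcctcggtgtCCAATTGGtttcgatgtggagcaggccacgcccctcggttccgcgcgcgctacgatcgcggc
Acss2: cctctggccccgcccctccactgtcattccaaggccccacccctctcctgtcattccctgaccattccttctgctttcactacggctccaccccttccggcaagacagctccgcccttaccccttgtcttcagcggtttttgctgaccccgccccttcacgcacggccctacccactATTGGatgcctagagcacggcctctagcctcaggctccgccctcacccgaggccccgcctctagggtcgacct
Tkt: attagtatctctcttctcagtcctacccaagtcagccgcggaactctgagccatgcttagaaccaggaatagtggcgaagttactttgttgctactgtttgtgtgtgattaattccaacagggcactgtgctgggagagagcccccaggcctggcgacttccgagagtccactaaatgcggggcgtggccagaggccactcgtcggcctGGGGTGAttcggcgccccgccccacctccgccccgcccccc
Fasn held CCAAT letters beginning 90, 62 and 59 bases before the start, the latter pair overlapping on opposite strands, and Acss2 held them at 73. Tkt held the TCACCCC letters on the opposite strand at 41, and Elovl6 held neither. A window was found for all 9 called genes of lipid synthesis (Fasn, Acly, Acss2, Me1, Tkt, Elovl6, Tecr, Tm7sf2 and Nsdhl), and CCAAT was present in 6 of these 9 (66.7%), against 39.8% of 8565 tested genes with a window and 33.8% of all 32851 windows. TCACCCC was present in 1 of 9 (11.1%), against 5.31% of tested genes and 4.31% of all windows. GGGCGG, the GC box, was present in 7 of 9 (77.8%, against 64.5% and 32.7%), whereas CACGTG, an E-box, and TATAAA, the TATA box, were in 0 of 9 (against 10.1% and 6.02%, and 8.09% and 12.4%). These are matches of letters in a short window, with no measurement of factor binding.

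The list of NADPH supply to the synthase also holds Tkt and Taldo1, which make no NADPH themselves. It had 2 of 7 genes called lower (Me1 and Tkt), against 0.217% of all genes, with none higher and a median of -0.87. Me1, cytosolic malic enzyme, read 13.97, 13.25, 13.87, 12.94 and 13.08 in control mice and 10.58, 10.89, 10.45, 10.88 and 11.26 in HF mice. The groups were separated by more than 1 log2 unit, and the mean difference was 6.12-fold (-2.61, SE 0.39, adjusted p = 0.00542). Tkt, the transketolase of the non-oxidative pentose phosphate pathway, read 14.46, 14.15, 14.43, 13.89 and 14.13 against 12.56, 12.82, 12.55, 12.57 and 13.02. Again no mouse of one diet lay within the range of the other, and Tkt fell 2.84-fold (-1.51, SE 0.22, adjusted p = 0.00448), with a second probe set called at -2.36. Of the uncalled members, Pgd, which makes NADPH in the oxidative branch, differed by -1.32 and Taldo1, the transaldolase, by -0.87, whereas Pgls (-0.07) and H6pd (0.08) had values near that of all genes.

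The largest change measured was in Elovl6, the elongase that takes palmitate to stearate. Control mice read 13.96, 12.91, 13.93, 12.82 and 13.08, and HF mice read 8.86, 8.40, 7.89, 9.04 and 8.19. The lowest control mouse exceeded the highest HF mouse by more than 3 log2 units, and the means differed 29.2-fold (-4.87, SE 0.62, 95% interval -6.16 to -3.58, adjusted p = 0.00173). A second probe set was called at -5.08, while a dimmer one differed by -1.93 (adjusted p = 0.0971). Of the 13 genes of elongation and desaturation measured, 2 fell (Elovl6 and Tecr), against 0.217% of all genes, and none rose, with a median of -0.48. Tecr, the reductase that ends each elongation cycle, differed by -1.50 (SE 0.28, adjusted p = 0.0317) and was no longer called without control mouse 1, control mouse 3 or HF mouse 5, leaving 1 of the 13.

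Scd1, the stearoyl-CoA desaturase that makes oleate, gave different answers from its 2 probe sets. The brighter one read 14.77 in control and 14.59 in HF mice (-0.18, SE 0.06, adjusted p = 0.229), but only 1 tested probe set had a higher mean over the 20 arrays, so it lies at the top of the measured range. The dimmer one was called lower at -1.40 (SE 0.28, adjusted p = 0.0463), a call kept under 12 of 23 alternative settings. The other desaturases, Fads2 (-0.48) and Fads1 (-0.34), did not pass the threshold.

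**Figure D2:**
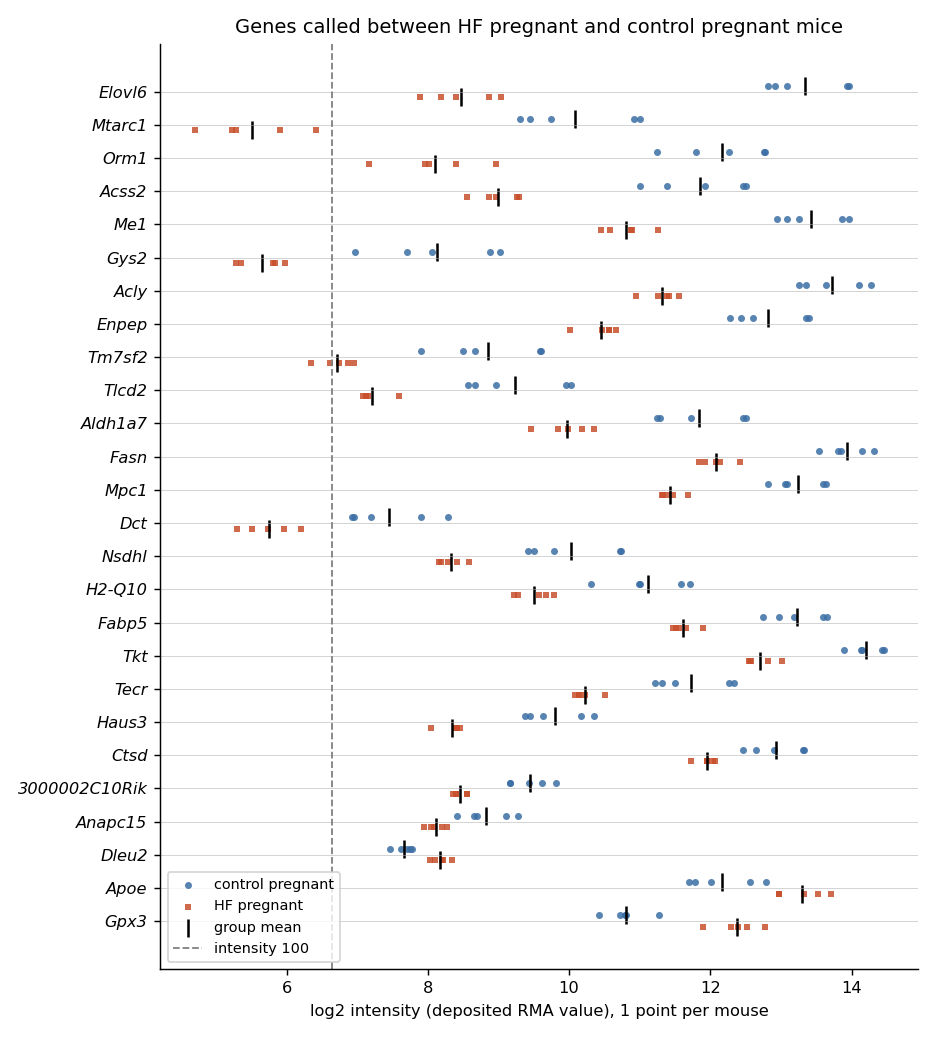
Log2 intensity of the 26 called genes (x axis) in each control pregnant mouse (blue circles) and HF pregnant mouse (red squares), with group means as black bars, ordered by fold change. The groups do not overlap in any of the 26 genes, Elovl6 has the widest separation at -4.87, and all HF mice lie left of an intensity of 100 (dashed line) for Mtarc1, Gys2 and Dct.

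Genes of cholesterol synthesis had negative folds in 16 of 17 members, with a median of -1.15. Of these, 2 fell, against 0.217% of all genes: Tm7sf2, a sterol reductase, from 8.85 ± 0.74 to 6.71 ± 0.24 (SD, n = 5 each; -2.15, SE 0.36, limma adjusted p = 0.0141), and Nsdhl, a sterol dehydrogenase, from 10.03 to 8.32 (-1.71, SE 0.31, adjusted p = 0.026). Both were called without control mouse 2, but neither was without control mouse 1, control mouse 3 or HF mouse 5. The 5 HF mice lay below all controls in 13 of 17 members, against 2.03% of all genes. Hmgcs1, which makes the HMG-CoA that starts the pathway, was the exception at 0.39 (adjusted p = 0.464). Among genes of sterol sensing and transport, 1 of 10 rose, which was Apoe (0.0283% of all genes did), none fell and the median was 0.16.

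Transcription factors that drive these enzymes did not show a change of the same size. Srebf1, which encodes SREBP-1, differed by -0.23 (95% interval -0.85 to 0.39), Mlxipl, which encodes ChREBP, by -0.56 (SE 0.47, adjusted p = 0.575) and Srebf2 by 0.01. None of 16 lipogenic regulators was called and their median was -0.22. Their lowest members were Insig1, an endoplasmic reticulum protein that holds SREBPs back (-1.37, adjusted p = 0.0982), and Thrsp, a nuclear protein tied to lipogenesis (-1.12, adjusted p = 0.0872). The arrays measure mRNA and say nothing of the cleavage or activity of these factors.

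Triglyceride assembly and storage showed no called gene. The 18 members of triglyceride synthesis had a median of -0.33, with Mogat2, a monoacylglycerol acyltransferase, at -1.89 (SE 0.46, adjusted p = 0.105), Agpat2, which acylates lysophosphatidic acid, at -1.57 (adjusted p = 0.141) and Dgat2, which adds the last acyl chain, at -1.26 (SE 0.29, adjusted p = 0.0842). HF and control mice overlapped for Dgat2. The 17 genes of droplet coats and lipolysis had a median of -0.10, and the most negative was Cidea, a droplet fusion protein, at -2.17 (SE 0.57, adjusted p = 0.141). Uptake of blood fatty acids, in 17 genes with a median of -0.12, had 1 gene called lower (Fabp5) and 1 higher (Apoe). Over all genes 0.217% were called lower and 0.0283% higher. Fabp5, a cytosolic fatty acid binding protein, fell from 13.23 ± 0.39 to 11.62 ± 0.17 (SD, n = 5 each; -1.61, SE 0.25, limma adjusted p = 0.00624), whereas Lpl, the lipase that frees fatty acids from lipoproteins (-0.28), and Cd36, a fatty acid transporter (-0.12), were not called.

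**Figure D3:**
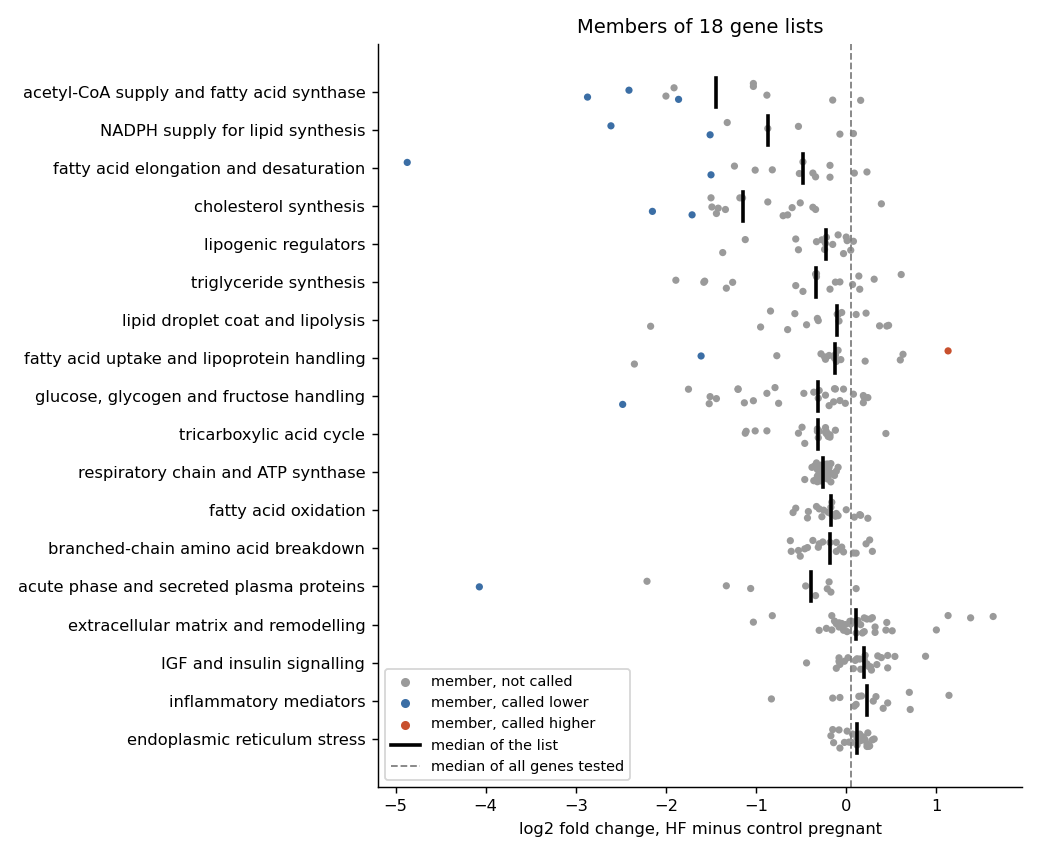
Log2 fold change between HF pregnant and control pregnant mice (x axis) for each tested member of 18 gene lists (rows), with called members in colour, list medians as black bars and the median of all genes (0.05) as a dashed line. The lists of acetyl-CoA supply (-1.44), cholesterol synthesis (-1.15) and NADPH supply (-0.87) have the lowest medians, and the 38 respiratory chain genes form a narrow cluster from -0.46 to -0.09.

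Glucose handling held 1 gene called lower among 29, against 0.217% of all genes, with a median of -0.31 and 24 negative members. Gys2, the liver form of glycogen synthase, read 8.13 ± 0.85 in control and 5.65 ± 0.31 in HF mice (SD, n = 5 each; -2.48, SE 0.44, limma adjusted p = 0.0197). All 5 HF mice were under an intensity of 100, and with values under 100 set to 100 the fold became -1.48. It was not called without control mouse 1, control mouse 3 or HF mouse 5. Pygl, liver glycogen phosphorylase, differed by -1.75 (adjusted p = 0.0764) and Pkm, pyruvate kinase, by -1.20. Mpc1, a subunit of the carrier that brings pyruvate into mitochondria, fell from 13.24 ± 0.36 to 11.44 ± 0.15 (SD, n = 5 each; -1.80, SE 0.30, limma adjusted p = 0.0107).

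Genes of oxidative metabolism held no call. All 38 genes of the respiratory chain and ATP synthase had negative folds, between -0.46 and -0.09, yet none was called. An unadjusted p under 0.05 was met by 19 of the 38, against 8.32% of all genes on the lower side, and HF mice lay below all controls in 1, against 2.03% of all genes. The 21 genes of the tricarboxylic acid cycle list had a median of -0.31 and no call, with Pdhb (-1.12) and Pdha1 (-0.88), subunits of pyruvate dehydrogenase, and Pcx, pyruvate carboxylase (-1.11), each with an unadjusted p under 0.05. Fatty acid oxidation, in 20 genes, had a median of -0.17, and breakdown of branched-chain amino acids, in 21 genes, one of -0.18, with no call in either.

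Outside lipid synthesis, the smallest adjusted p of all belonged to Orm1, which encodes the acute phase plasma protein alpha-1-acid glycoprotein. It read 12.78, 11.24, 12.76, 11.80 and 12.27 in control mice and 7.96, 8.01, 7.17, 8.96 and 8.40 in HF mice. The groups were more than 2 log2 units apart, and Orm1 was 16.8-fold lower on the HF diet (-4.07, SE 0.38, 95% interval -4.86 to -3.28, adjusted p = 4.7e-05). Its relatives Orm2 (-2.21, adjusted p = 0.0985) and Orm3 (-1.33, adjusted p = 0.0665) did not pass the threshold. Orm2 and Orm3 had means of 6.73 and 7.15 in control mice and of 4.52 and 5.81 in HF mice. Both HF means were under an intensity of 100, so these folds depend on dim values. Since Orm1, Orm2 and Orm3 are close in sequence, their probes may share signal. None of the other 9 acute phase and plasma protein genes was called, and the median of the list was -0.39.

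Mtarc1, a molybdenum enzyme of the outer mitochondrial membrane, had the second smallest adjusted p. Control mice read 11.01, 9.45, 10.92, 9.30 and 9.74 and HF mice 5.29, 5.91, 4.70, 6.42 and 5.23. Every HF mouse was under an intensity of 100, so the fitted fold (-4.57, SE 0.48, adjusted p = 0.000178) depends on dim values, and it was -3.44 with those set to 100. Its second probe set, also under 100 in every HF mouse, differed by -2.91 (adjusted p = 0.0141), or -1.44 with those values set to 100, and was called under 17 of 23 alternative settings.

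Enpep, the membrane aminopeptidase that trims angiotensin II, fell from 12.81 ± 0.53 to 10.46 ± 0.25 (SD, n = 5 each; -2.36, SE 0.33, limma adjusted p = 0.00316). With the lysosomal protease Ctsd (-0.99, SE 0.19, adjusted p = 0.0404) it made 2 called of 7 genes in the list of the local angiotensin system (against 0.217% of all genes), whose median was -0.01, but Ctsd was not called without control mouse 1, control mouse 3 or HF mouse 5. Agt, which encodes the precursor angiotensinogen, differed by 0.76 and was not called.

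The rest of the called lower genes were of mixed function. Aldh1a7, an aldehyde dehydrogenase, differed by -1.88 (adjusted p = 0.0186), and Dct, a melanin synthesis enzyme, by -1.71 (adjusted p = 0.0153), although all HF mice were under 100 for Dct and the fold was -0.81 with dim values set to 100. Tlcd2, a membrane protein, differed by -2.02 (adjusted p = 0.0438), Haus3, a subunit of the spindle complex augmin, by -1.46 (adjusted p = 0.0463), and Anapc15, a subunit of the anaphase-promoting complex, by -0.72 (adjusted p = 0.0463). H2-Q10, a class I histocompatibility gene with close relatives that its probes may also read, differed by -1.62 (adjusted p = 0.0375). The uncharacterised 3000002C10Rik differed by -0.98 (adjusted p = 0.0189). Of 4 probe sets of Chpt1, a phosphatidylcholine synthesis enzyme, 1 was called at -1.62, and the remaining 3, at -1.32, -1.16 and -0.90, were not. Several of these calls were lost in many of the 24 alternative settings run: Tlcd2 and H2-Q10 were called under 13 of them, Haus3 under 12, Anapc15 under 11, 3000002C10Rik under 16, Aldh1a7 under 17 and Dct under 18.

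Only 3 genes were called higher. Gpx3, the secreted glutathione peroxidase, read 11.27, 10.81, 10.72, 10.42 and 10.79 in control mice and 12.30, 12.78, 12.39, 11.89 and 12.52 in HF mice. The lowest HF mouse was above the highest control mouse, and Gpx3 was 2.98-fold higher (1.58, SE 0.27, adjusted p = 0.0173). It was the only called gene among 21 antioxidant enzymes, whose median was -0.07, while 0.0283% of all genes were called higher.

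Apoe, the apolipoprotein that carries cholesterol and is made by macrophages and adipocytes, read 11.70, 12.79, 11.79, 12.56 and 12.01 in control mice and 12.97, 13.33, 13.53, 12.98 and 13.71 in HF mice. The gap between the groups was small, since control mouse 2 came within 1 log2 unit of every HF mouse, and the mean difference was 1.13 (SE 0.21, adjusted p = 0.0299). Control mice 1 and 3, lowest for Apoe, were also the lowest controls for the macrophage list, at -0.85 and -0.27 mean deviation; the part of these cells in the Apoe value was not tested. Dleu2, a long noncoding RNA, differed by 0.52 (SE 0.10, adjusted p = 0.0463). Leaving out control mouse 3 or HF mouse 2, 3 or 5 left 0 probe sets called higher. Of the 24 alternative settings, Gpx3 was called under 19, Apoe under 14 and Dleu2 under 8.

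Near the threshold the order was close. Just inside lay the dimmer Scd1 probe set (adjusted p = 0.0463), Haus3 (0.0463) and a probe set with no gene symbol (0.0464), and just outside lay Lrpap1, a chaperone of lipoprotein receptors (-1.52, 0.0517), a probe set of Lss, the lanosterol synthase (-1.81, 0.0529), and Acaca (0.0561). Of the genes changed at least 2-fold on average, 104 lower and 50 higher were not called. Among these the lowest was Hephl1, a ferroxidase (-2.99, SE 0.62, adjusted p = 0.0564), whose HF mean of 5.0 (8.0 in control mice) was under an intensity of 100. The highest was Cyp1a1, a target of the aryl hydrocarbon receptor (2.55, SE 0.53, adjusted p = 0.0564). Its control mice were all under an intensity of 100, and its fold was 0.97 with dim values set to 100.

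Apart from Orm1, which fell, the study's named genes of inflammation, estrogen, retinol and growth factor signalling were not called between the diets in pregnancy. The study's pathway analysis listed them for a different contrast, the change with pregnancy while the HF diet was held the same. That contrast was not tested here, so the values below do not bear on it. By qRT-PCR the study also compared the diets. It reported Me1, Fasn, Scd1 and Rdh11 mRNA lower with HF feeding whether or not the mice were pregnant. Rbp4 mRNA was reported lower with pregnancy but not with HF feeding, and Ccl2 and Tnf mRNA as converging between the diets by E18.5. Ccl2, a chemokine that draws monocytes, differed by -0.15 (95% interval -0.67 to 0.36), and Tnf passed an intensity of 100 on 0 of 20 arrays, its highest value being 85.6. The 14 inflammatory mediators measured had a median of 0.23, the 20 interferon response genes one of 0.19 and the 9 genes of class II presentation one of 0.48, without a call. Igf1, the growth factor, differed by 0.35 (95% interval -0.25 to 0.95) and its binding protein Igfbp3 by 0.88 (SE 0.27, adjusted p = 0.211), within a list of 25 genes of IGF and insulin signalling with a median of 0.20.

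Esr1, the estrogen receptor, differed by -0.18 (95% interval -0.89 to 0.53), and Hsd17b12, a dehydrogenase of estrogen and fatty acid metabolism, by -0.82 (SE 0.30, adjusted p = 0.275). None of the 12 genes of estrogen receptors and 17-beta-HSDs was called. In retinol metabolism Rbp4, the plasma retinol carrier, differed by -1.06 (SE 0.29, adjusted p = 0.154) and Rdh11, a retinol dehydrogenase, by -1.59 (SE 0.40, adjusted p = 0.125), with no call in 13 genes. The 12 adipokines held no call either: Lep, which encodes leptin, differed by -0.43 (adjusted p = 0.724), Retn, which encodes resistin, by -0.60 and Rarres2, which encodes chemerin, by 1.0 (adjusted p = 0.173).

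Cell type markers were examined because the tissue was not sorted. No marker of B cells, T cells, adipocytes, endothelium, mesothelium, smooth muscle or macrophages in general was called between the diets in pregnancy. The 13 markers of lipid-associated macrophages held Fabp5, called lower, and Apoe, called higher, against 0.217% and 0.0283% of all genes. Folds were negative in 9 of 11 adipocyte markers (median -0.24) and positive in 13 of 14 smooth muscle markers (median 0.92), 20 of 21 macrophage markers (median 0.36) and 13 of 13 B cell markers (median 0.80). The part of these cells in the called genes was not tested beyond the covariates given below. The lists also varied from mouse to mouse. The mean log2 deviation of 13 B cell markers from their mean over the arrays ran from -2.86 in control mouse 1 and -1.27 in control mouse 3 to 1.57 in control mouse 2, and from -1.81 in HF mouse 5 to 1.19 in HF mouse 4. Adipocyte markers took the opposite order in these mice, at 0.63 in control mouse 1, 0.44 in control mouse 3, -0.51 in control mouse 2 and 0.39 in HF mouse 5. Over all mice the ranges of control and HF pregnant mice were -1.65 to 1.37 and -1.73 to 0.76 for 13 T cell markers, -0.51 to 0.63 and -0.48 to 0.39 for 11 adipocyte markers, and -0.85 to 0.40 and -0.07 to 0.54 for 21 macrophage markers. None of the 6 placental and decidual markers on the array passed an intensity of 100 on at least 5 of 20 arrays, so none was tested. A marker bright in fewer arrays would also fail this filter. The milk protein gene Csn2 and the brown fat gene Ucp1 passed an intensity of 100 on 0 of 20 arrays. The 4 acinar markers tested reached 4.86 in control mouse 2 and lay between -1.08 and 1.05 in the other 9 pregnant mice.

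Control mice 1 and 3 were also the highest controls in all 23 genes called lower, which was true of 3743 of all 10603 genes (35.3%). The control SD exceeded the HF SD in 23 of these 23 genes and in 9127 of all genes. The acetyl-CoA list followed the same order within the controls, at 1.16, 0.25, 1.0, 0.02 and 0.28 in mice 1 to 5, and was at -0.99, -0.69, -1.02, -1.11 and -0.45 in HF mice 1 to 5. Every HF mouse, HF mouse 5 included, had a lower acetyl-CoA list than any control mouse. The adipocyte markers of HF mouse 5 were above those of control mice 2, 4 and 5. That is 1 mouse, and the part of adipocyte content in its value was not tested. With the B and T cell markers as a covariate, 38 of the 38 called probe sets stayed called, and with the acinar markers 17 did. With the adipocyte markers, a covariate chosen after seeing the data, 38 of the 38 stayed called.

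**Figure D4:**
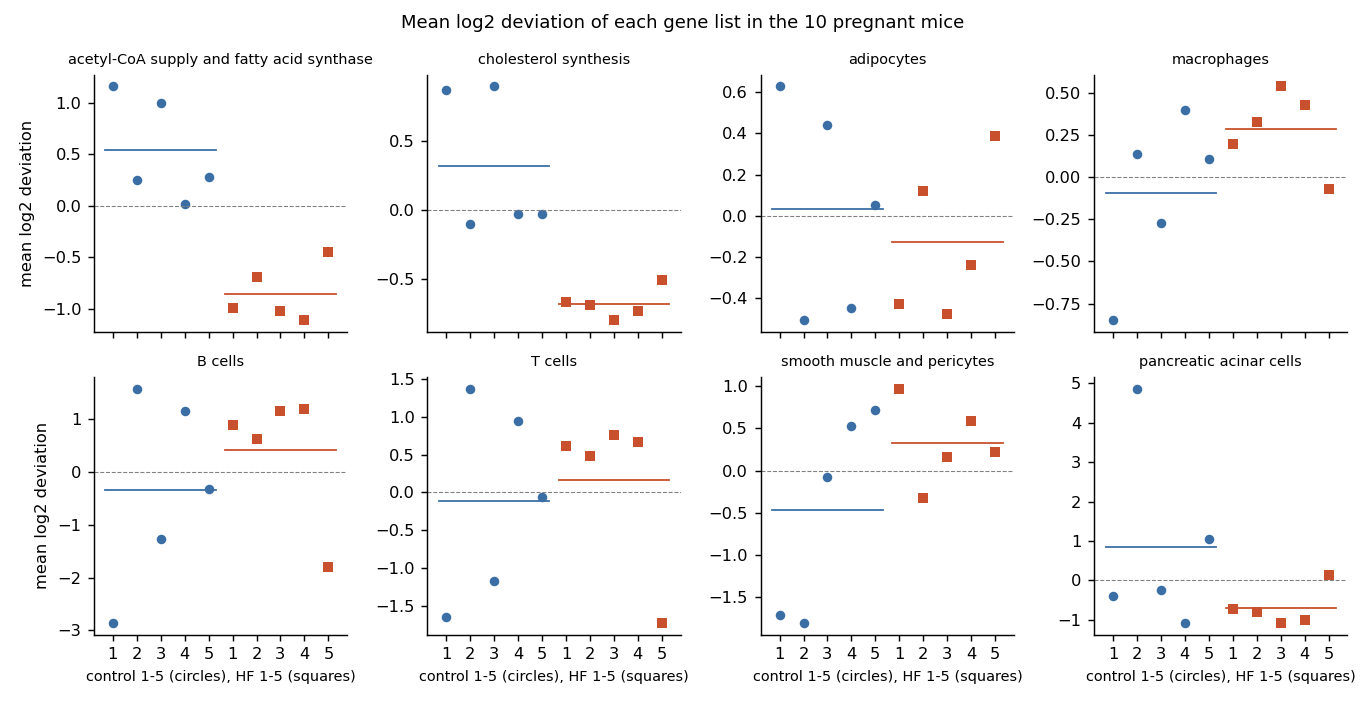
Mean log2 deviation of 8 gene lists (y axes, each with its own scale) in control pregnant mice 1 to 5 (blue circles) and HF pregnant mice 1 to 5 (red squares), with group means as lines. The diets separate for acetyl-CoA supply and cholesterol synthesis, whereas for adipocyte, lymphocyte, macrophage, smooth muscle and acinar markers the mice of both diets overlap.

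For the called lower genes, the same diets without pregnancy gave smaller differences in the same direction. In non pregnant mice 0 of 19802 probe sets were called by limma (smallest adjusted p 0.281). At an unadjusted p under 0.05 there were 3500 probe sets without and 2542 with pregnancy, and 208 genes without against 52 with pregnancy were at least 2-fold higher on the HF diet (61 against 124 at least 2-fold lower). All 35 probe sets called lower in pregnancy were also negative without it, 32 of them with an unadjusted p under 0.05, and their median fold was -1.96 with pregnancy and -0.84 without. Having been chosen in pregnant mice, these probe sets had to favour the larger value there.

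Tested directly, the difference between the effect of diet in pregnant and non pregnant mice was called for 0 of 19802 probe sets (610 at an unadjusted p under 0.05). Orm1 came nearest: control and HF means were 11.96 and 11.11 in non pregnant mice, so its fold was -0.86 there against -4.07 in pregnancy, a difference of -3.21 (SE 0.53, unadjusted p = 1.02e-05, limma adjusted p = 0.201). Elovl6 was -2.06 without pregnancy, from 12.77 to 10.71, and Fasn was -0.77. Gpx3 differed in sign, at -0.23 without and 1.58 with pregnancy (difference 1.80, SE 0.39, adjusted p = 0.933). Whether pregnancy altered the response to the diet was therefore not resolved for any single gene with 5 mice per group.

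**Figure D5:**
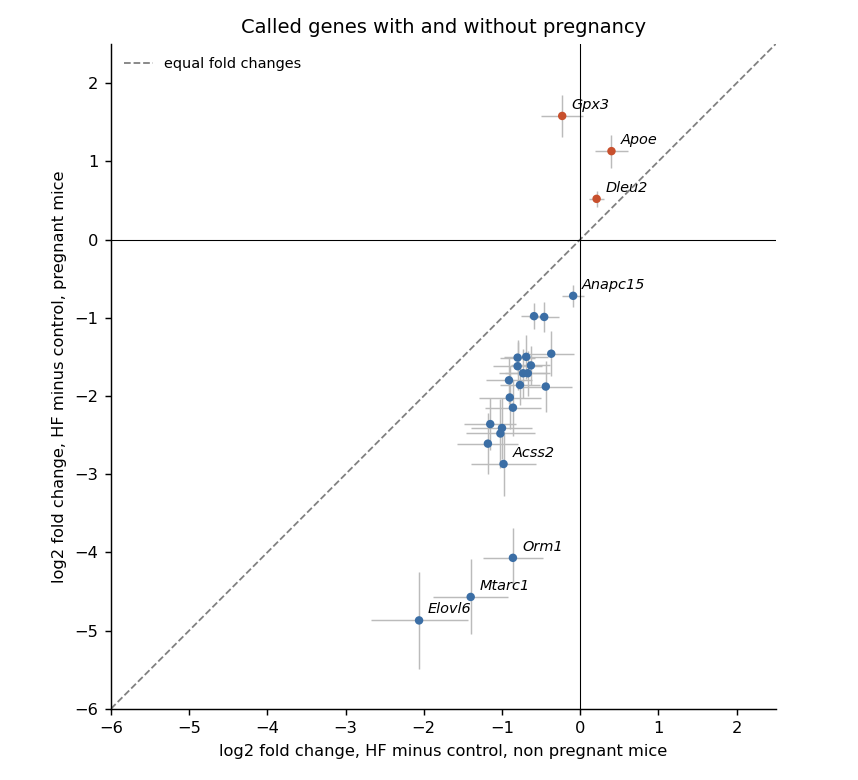
Log2 fold change by diet in pregnant mice (y axis) against non pregnant mice (x axis) for the 26 called genes, with SE bars and a dashed line of equal change. All 23 genes called lower lie left of 0 and below the line, Orm1 at -0.86 and -4.07, and of the 3 called higher Gpx3 lies left of 0 at -0.23.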

How the data were processed

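RNA from visceral fat of 20 C57BL/6J mice (4 groups of 5, 1 array per mouse) was hybridised to Affymetrix Mouse Genome 430 2.0 arrays. The deposited values are linear intensity values that the authors made with RMA (affy, R 2.8.0 per the labels' processing notes), which corrects background and makes the arrays share a distribution, so shifts common to all genes cannot be seen. RNA was extracted with Trizol per the labels and with a column kit per the study's methods. Scan dates are not given in the sources used here. Per the methods the mice came from different litters and mothers, so they were taken as biological replicates. Their number and the spread between them limit the precision.

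From the 45101 probe sets, 64 control probe sets were left out, log2 was taken and 19802 probe sets with an intensity above 100 in at least 5 of 20 arrays were kept. Group means were fitted over all 20 arrays with limma 3.58.1 in R 4.3.3 (lmFit, contrasts.fit, eBayes), p-values were adjusted by Benjamini-Hochberg over all 19802 and an adjusted p under 0.05 was called. The same fit gave the diet effect in non pregnant mice and the difference of both effects. Probe sets were named through GEO's platform annotation (17322 with 1 symbol, 531 with several and 1949 with none), those with 1 symbol were given to genes, and each gene was represented by its probe set of highest mean. Intervals are 95% intervals of the fit. The code was tested on simulated data.

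The comparison, its gene lists and the rule for named genes (all called genes, the called members or else those of smallest p in each list, and genes the study names) were chosen with earlier results of these data known. Promoter windows are RefSeq sequences on GRCm38.p6, searched on both strands for fixed letters. Alternatives were the filter, array weights, normalization, a floor at 100, gene means, only the arrays compared, a replicate block, marker covariates and leaving out each array. The adipocyte covariate, the control probe sets kept and the counts per gene list were added after seeing the data.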

Additional observations from a re-analysis of the deposited data

Results flagged for a closer look

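Among 52 groups of 5 mice checked (26 called genes in the 2 pregnant groups), 2 held a mouse whose gap to its nearest neighbour, divided by the range of the group, exceeded Dixon's critical value of 0.71, and chance alone gives about 1 in 20. Both were HF pregnant mouse 5: Tlcd2 read 7.59 there, the highest of its group, and Haus3 read 8.05, the lowest of its group. Leaving this mouse out reduced the called probe sets from 38 to 18. The drop was not particular to it, since leaving out HF pregnant mouse 1, 2, 3 or 4 gave 22, 22, 16 or 24.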

How the results depend on the processing

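All 38 called probe sets kept their direction under every alternative run on them, and in 215 of 900 cases a value no longer passed the threshold. Of the 38, 15 were called under every alternative: probe sets of Orm1, Mtarc1, Elovl6, Acss2, Fasn, Enpep, Tkt, Acly, Me1 and Fabp5. The number called depended more on the setting than the direction did. It was 25 (1 higher) without the filter on low intensity, 64 (8 higher, 56 lower) with only the pregnant arrays, 130 (58 and 72) with B and T cell markers as covariate, 17 (0 and 17) with acinar markers, 418 (119 and 299) with adipocyte markers, and 561 (92 and 469) at an unadjusted p under 0.05 with 1.5-fold. Array weights gave 1365 (582 and 783), but 1 non pregnant array took a weight of 11.3 and control pregnant mouse 1 one of 0.233. Without the filter 1 probe set was called in non pregnant mice, array weights gave 7489 and the unadjusted rule 774. The difference of the diet effects had 2 calls with array weights, 1 with adipocyte markers and 177 by the unadjusted rule. The adipocyte covariate was chosen after seeing the data.

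Leaving out 1 array at a time gave 15 to 62 called probe sets (0 to 9 higher and 15 to 56 lower), 0 in non pregnant mice in every case, and 0 to 1 for the difference, the 1 being without HF non pregnant mouse 5. The count left the range of 1.5 times without control pregnant mouse 1 (17), 2 (62), 3 (15), 4 (59) or 5 (25), HF pregnant mouse 1 (22), 2 (22), 3 (16), 4 (24) or 5 (18), and control non pregnant mouse 2 or HF non pregnant mouse 5 (60 each); the cause was not tested.

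The titles number the mice without saying that the numbers pair them. Deviations of same-numbered pregnant mice correlated at -0.64, 0.27, -0.70, 0.67 and -0.01. These correlations cannot show whether same-numbered mice shared a batch, since cell content also varied between mice. With the number as a replicate block 17 probe sets were called (1 higher, 16 lower), all of them among the 38.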

Other observations

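Genes of the extracellular matrix moved little as a list (36 genes, median 0.11, no call), and 4 of 36 had all 5 HF pregnant mice above all controls, against 1.82% of all genes. Thbs2, a matrix glycoprotein, differed by 1.63 (SE 0.36, limma adjusted p = 0.075) and Mmp14, a membrane collagenase, by 0.44 (adjusted p = 0.136). Mast cell markers had positive folds in 5 of 5 measured genes, with a median of 0.69 in pregnant and -0.33 in non pregnant mice, and Cma1, the mast cell chymase, differed by 0.93 (adjusted p = 0.137). Proliferation genes had a median of -0.04 in pregnant mice and 0.83 in non pregnant mice, where B cell markers had one of 1.61, and the part of these cells was not tested.

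The uncalled genes of largest fold, chosen after their values were seen, were of mixed kind. Below, after Hephl1, came Angptl8, an insulin-responsive regulator of lipoprotein lipase (-2.35, SE 0.68, limma adjusted p = 0.178). Above, after Cyp1a1, came the pantetheinase Vnn1 (2.34, adjusted p = 0.194), the imprinted genes Nnat (2.13, adjusted p = 0.193) and Peg3 (1.72, adjusted p = 0.0564), and Pmepa1, a TGF-beta target (2.06, adjusted p = 0.0665). Ddit4, a stress and glucocorticoid responsive gene, differed by 1.17 in pregnant (adjusted p = 0.163) and by 0.90 in non pregnant mice.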
